A study of Homo sapiens with 6 samples.

Results

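Actin filaments are built from 2 cytoplasmic actins, β-actin and γ-actin, and are shaped by proteins that bind monomers, cut and crosslink filaments, or tie them to adhesions. The genes described here are 9 of the 58735 rows of the deposited table, taken by their gene names: ACTB and ACTG1 (the cytoplasmic actins), PFN1 and CFL1 (profilin 1 and cofilin 1), ACTN1, ACTN4 and FLNA (α-actinins 1 and 4 and filamin A), and TLN1 and VCL (talin 1 and vinculin). All 9 passed the filter of a mean of at least 1 FPKM (fragments counted on a gene, divided by its length in kilobases and by a library size), as did 12871 genes in all. They were measured by RNA-seq in 6 libraries of SW480, a long-established cell line from a human colorectal carcinoma, whose genotype is labelled wild type. In 3 libraries the cells had received a negative control siRNA, and in the other 3 an siRNA against ITGB4, which encodes the integrin β4 subunit. The labels name no siRNA sequence, no time after transfection and no second siRNA against ITGB4. They call the libraries of a group biological replicates without saying what was repeated, so the p-values measure only the spread between these libraries.

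Profilin hands ATP-bound actin monomers to growing filament ends, and cofilin cuts older filaments and returns monomers to the pool. α-Actinin and filamin crosslink filaments into bundles and networks. Talin binds the tails of most integrin β subunits and recruits vinculin, and both then hold the filaments that pull on focal adhesions. Integrin β4 differs from those subunits, since in hemidesmosomes it is joined through plectin to keratin filaments. The comparison asks whether transcripts of this machinery differ when ITGB4 is depleted. In epithelial cells such as SW480 the cytoplasmic actins are the main actins, while the muscle actins mark other cell types.

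The 2 actin genes encode nearly the same protein, so the starts of their coding sequences are shown first to show what separates their reads. In GENCODE 29 (GRCh38) both coding sequences are 1128 bases long and 91.2% of their bases are identical, with 99 differences. The 375-residue proteins encoded differ at 4 residues. Coding bases 1 to 90 are printed 5′ to 3′, with the 17 bases that differ between the genes in capitals.
ACTB: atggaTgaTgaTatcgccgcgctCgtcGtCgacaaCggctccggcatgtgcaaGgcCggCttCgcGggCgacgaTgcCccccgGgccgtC
ACTG1: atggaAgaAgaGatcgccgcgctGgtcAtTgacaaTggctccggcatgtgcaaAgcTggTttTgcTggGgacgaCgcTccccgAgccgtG
The longest stretch with no difference between the 2 coding sequences is 59 bases. Read length is not given in the sources used here, so how many reads lay within such stretches is unknown.

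Copies elsewhere in the genome also share these sequences. Of the 50-base words of the ACTB coding sequence 17.8% occur in a transcript of another annotated gene, most often the processed pseudogene ACTBP2 (8.80%). For ACTG1 the share is 7.32%, for CFL1 1.55% and for PFN1 29.4%, all of the last in PFN1P1. The pseudogene rows named after a parent gene held few reads. The 10 ACTB copies summed to 35 to 57 reads a library, at most 0.0849% of the ACTB reads, and the 20 ACTG1 copies to 39 to 76. The 10 PFN1 copies summed to 93 to 164 reads, which is 0.699% to 1.23% of the PFN1 reads. Reads from a parent that were dropped for matching several places are not counted in these shares.

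The libraries held 13715266 to 15496274 reads recovered from the deposited values, and the 9 genes took 264361 to 286384 of them. Their share was 1.92%, 1.78% and 1.84% of all reads in control siRNA replicates 1, 2 and 3. It was 1.94%, 1.86% and 1.85% in ITGB4 siRNA replicates 1, 2 and 3, so the groups overlapped. Replicate 1 had the highest share in both groups. ITGB4 itself had 74.3, 63.8 and 69.8 FPKM in the control libraries. Under its own siRNA it had 41.1, 38.1 and 37.9 FPKM, lower in 3 of 3 libraries (log2 fold change -0.81, limma adjusted p = 0.0148; 0.0797 without replicate 1 of both groups, and 0.0309 to 0.137 over the fits that leave out 1 library). Of the epithelial markers, EPCAM, KRT8, KRT18, CDX2 and CDH1 had means of at least 1 FPKM, while KRT20, CDX1 and VIL1 were below it. In each library the 6 fibroblast markers together summed to at most 0.843 FPKM, the 4 endothelial ones to at most 0.242, the 8 muscle ones to at most 2.47 and the 5 leukocyte ones to at most 0.29. COL1A2, COL3A1, DCN, LUM, CDH5 and KDR were listed at 0 in all 6 libraries.

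No call was made for any of the 9 genes. Called here means a Benjamini-Hochberg adjusted p under 0.05 in limma, a linear model fitted to all tested genes. By that rule 0 of 9 were called, while 1 of 9, ACTB, had a raw p under 0.05. Run on the recovered reads, limma-voom also called 0 of 9. Over all tested genes these shares were 0.0466% for limma, 5.83% at the raw p and 0.202% for limma-voom. Control and ITGB4 siRNA libraries were fully apart for 1 of 9 genes, again ACTB, against 11.1% of all tested genes. The log2 fold changes of FPKM + 1 lay above 0 for 5 genes and below it for 4, from -0.09 to 0.11, and their median was 0.00108 beside -0.0034 over all genes. The 95% confidence intervals bound each change: the lowest limit was -13.9% (ACTN4) and the highest 14.5% (ACTB). In bulk RNA, a change in the number of cells with a transcript and a change in RNA per cell cannot be told apart.

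**Figure D1:**
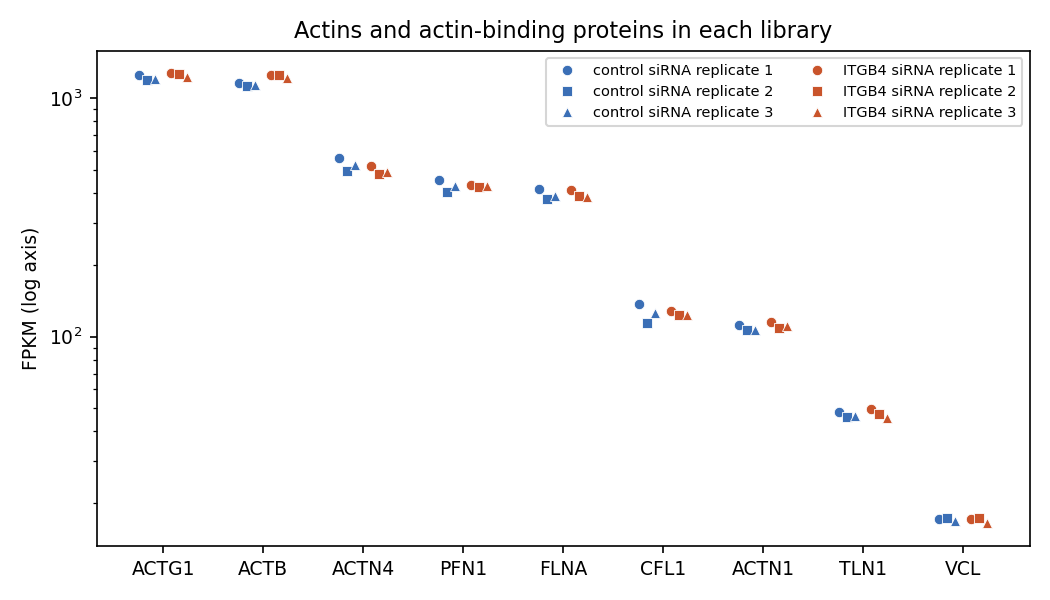
FPKM on a log axis of the 9 genes in each of the 6 libraries, control siRNA in blue and ITGB4 siRNA in orange, with the marker shape giving the replicate number. The genes span from ACTG1 (mean 1237 FPKM) to VCL (17.04 FPKM), and for each gene except ACTB the values of both groups overlap.

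ACTB (ENSG00000075624; GRCh38 chromosome 7, 5527147 to 5563784, minus strand) encodes β-actin, which is concentrated at moving cell edges and is often used as a reference transcript. It was at 1163, 1126 and 1141 FPKM in control siRNA replicates 1, 2 and 3 and at 1252, 1249 and 1213 in the ITGB4 siRNA replicates. Each ITGB4 siRNA library lay above each control library. The means were 1143 ± 18.3 and 1238 ± 21.6 FPKM (SD, n = 3 each), a difference of 8.26%. The log2 fold change was 0.11 (SE 0.0343, 95% interval 0.03 to 0.20), with a limma adjusted p of 0.683 and a limma-voom adjusted p of 0.296. The exact permutation p was 0.1, the smallest that 3 against 3 libraries can give. The difference of ACTB was therefore larger than the spread between libraries of a group but did not pass over all genes.

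ACTG1 (ENSG00000184009; chromosome 17, 81509971 to 81523847, minus strand) encodes γ-actin, the other cytoplasmic isoform, enriched in the cortex of epithelial cells. It was at 1252, 1196 and 1207 FPKM with control siRNA and at 1275, 1267 and 1226 with ITGB4 siRNA. Control replicate 1 lay above ITGB4 siRNA replicate 3, so the groups overlapped. The means were 1218 ± 30.0 and 1256 ± 26.4 FPKM (SD, n = 3 each), and the interval of the change ran from -2.98% to 9.58%.

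The balance of the 2 actins within a library does not depend on how libraries are scaled. The ratio of ACTB to ACTG1 FPKM was 0.928, 0.942 and 0.946 in control siRNA replicates 1, 2 and 3 and 0.982, 0.986 and 0.9895 in the ITGB4 siRNA replicates. The groups did not overlap, and the ratio was 4.998% higher with ITGB4 siRNA. On the log2 scale the difference was 0.07, against a spread between libraries of 0.0140 in the control group and 0.00573 in the other (SD, n = 3 each). Counting error alone gives each library's log2 ratio an error of 0.00843. The exact permutation p was 0.1, the smallest possible, and 0.15 after Benjamini-Hochberg adjustment over the 3 ratios tested. How reads that fit both genes were assigned is not given in the sources used here, and their part in the ratio was not tested.

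PFN1 (ENSG00000108518; chromosome 17, 4945652 to 4949061, minus strand), which feeds monomers to formins and Ena/VASP proteins, was at 454.0, 405.6 and 428.1 FPKM in the control libraries. With ITGB4 siRNA it was at 432.5, 424.5 and 430.3 FPKM, within the control range in 3 of 3 libraries. The means were 429.2 ± 24.2 and 429.1 ± 4.14 FPKM (SD, n = 3 each), and the interval of the change ran from -7.51% to 8.28%.

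CFL1 (ENSG00000172757; chromosome 11, 65823022 to 65862026, minus strand), the filament-severing cofilin of non-muscle cells, was at 137.0, 114.1 and 125.5 FPKM with control siRNA. With ITGB4 siRNA it was at 128.3, 122.95 and 122.9 FPKM, again within the control range in 3 of 3 libraries. Its control libraries had a coefficient of variation of 9.12%, the widest of the 9 genes, where counting error gives 0.956%. The interval of its change was correspondingly wide, from -11.0% to 11.4%. The CFL1 to PFN1 ratio overlapped between the groups, with a mean log2 difference of -0.00691 and an exact permutation p of 0.9.

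ACTN4 (ENSG00000130402; chromosome 19, 38647649 to 38731583, plus strand) encodes α-actinin 4, a crosslinker of stress fibres and cell edges that was first described in motile cancer cells. It was at 561.5, 497.5 and 526.9 FPKM with control siRNA and at 518.8, 483.1 and 490.9 with ITGB4 siRNA. The groups overlapped because control replicate 2 lay below ITGB4 siRNA replicate 1. The means were 528.6 ± 32.1 and 497.6 ± 18.8 FPKM (SD, n = 3 each), a difference of -5.87% that did not pass (log2 fold change -0.09, limma adjusted p = 0.985).

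ACTN1 (ENSG00000072110; chromosome 14, 68874143 to 68979440, minus strand) encodes α-actinin 1, the relative that joins focal adhesions to stress fibres. It was at 112.4, 106.3 and 106.9 FPKM with control siRNA and at 115.03, 108.4 and 110.5 with ITGB4 siRNA, with overlapping groups. Its coding sequence shares 1.29% of its 50-base words with ACTN4, and 80.8% of the aligned bases of both coding sequences are identical.

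In the ratio of the 2 α-actinins the groups did part. ACTN4 was 4.997, 4.68 and 4.93 times ACTN1 in the control libraries and 4.51, 4.46 and 4.44 times with ITGB4 siRNA, so that each ITGB4 siRNA library was below each control library. The ratio was 8.17% lower with ITGB4 siRNA (log2 difference -0.12). On the log2 scale the spread was 0.0494 in the control group and 0.0116 in the other (SD, n = 3 each). Counting error alone gives each library's log2 ratio an error of 0.0128, above the spread in the ITGB4 siRNA group. The exact permutation p was 0.1, the smallest possible, and 0.15 after adjustment over the 3 ratios. For 2 of these 3 ratios the groups did not overlap, while single tested genes did so in 11.1% of cases, and ratios of other gene pairs were not computed.

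**Figure D2:**
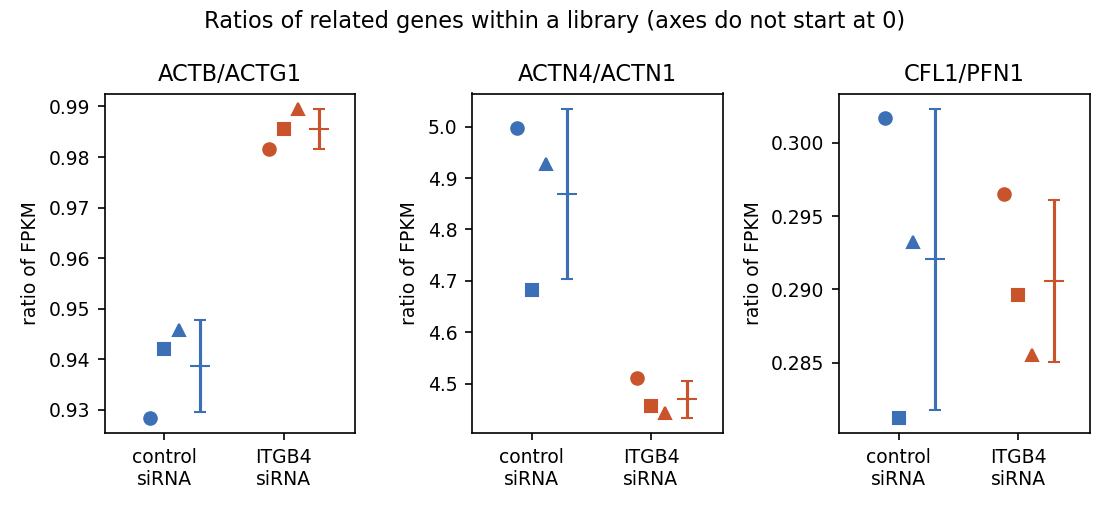
Ratios of FPKM within each library for ACTB to ACTG1, ACTN4 to ACTN1 and CFL1 to PFN1, one point per library with the marker shape giving the replicate number and bars for the mean ± SD of 3 libraries. ACTB/ACTG1 was 0.928 to 0.946 with control siRNA and 0.982 to 0.9895 with ITGB4 siRNA, ACTN4/ACTN1 was lower with ITGB4 siRNA in 3 of 3 libraries, and CFL1/PFN1 overlapped.

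FLNA (ENSG00000196924; chromosome X, 154348524 to 154374638, minus strand) encodes filamin A, a long crosslinker that also binds integrin tails. It was at 417.1, 379.9 and 391.1 FPKM with control siRNA and at 412.4, 387.8 and 386.04 with ITGB4 siRNA, and 3 of 3 ITGB4 siRNA libraries lay within the control range. The interval of its change ran from -7.95% to 8.34%.

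TLN1 (ENSG00000137076; chromosome 9, 35696948 to 35732395, minus strand), the talin that activates integrins, was at 48.3, 46.02 and 46.3 FPKM with control siRNA and at 49.5, 47.3 and 45.6 with ITGB4 siRNA. Both the highest and the lowest of the 6 values were ITGB4 siRNA libraries. VCL (ENSG00000035403; chromosome 10, 73995193 to 74121363, plus strand), which talin exposes binding sites for under tension, was at 17.12, 17.4 and 16.9 FPKM with control siRNA and at 17.1, 17.3 and 16.5 with ITGB4 siRNA. The intervals of the changes ran from -6.44% to 9.22% for TLN1 and from -7.82% to 6.32% for VCL. TLN1 overlaps CREB3 on the opposite strand, with a mean of 38.9 FPKM, and VCL overlaps AP3M1, with a mean of 12.9 FPKM. Strandedness is not stated in the labels, and overlap of exons was not examined. Whether reads from these overlaps were counted on the wrong gene is therefore unknown.

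**Figure D3:**
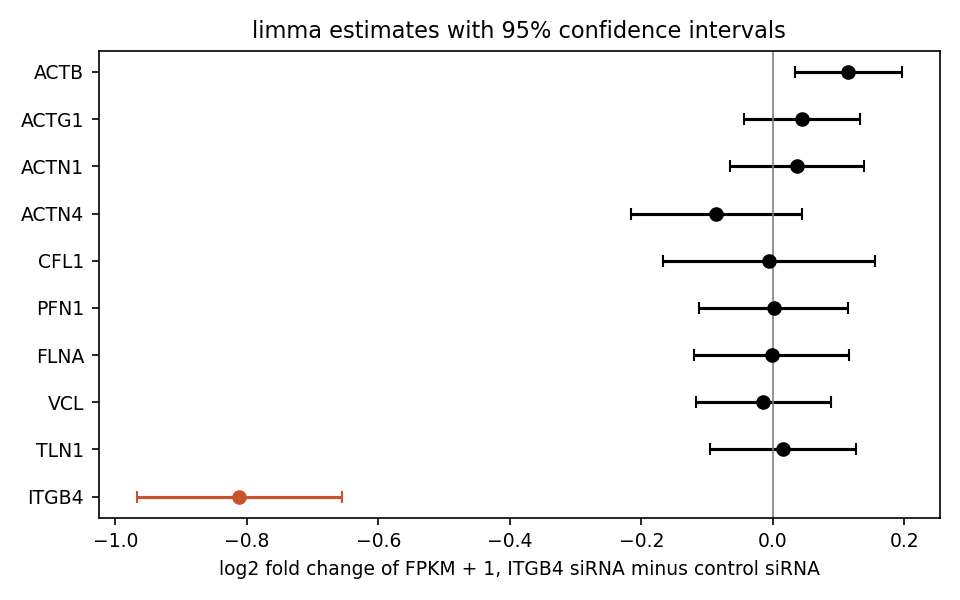
limma estimates of the log2 fold change of FPKM + 1 (ITGB4 siRNA minus control siRNA) with 95% confidence intervals for the 9 genes and, in orange, for ITGB4. The intervals of 8 of the 9 genes include 0, that of ACTB runs from 0.03 to 0.20, and that of ITGB4 from -0.97 to -0.66.

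Within each group the 9 genes tended to be highest in the same library. Replicate 1 held the highest value of its group for 8 of 9 genes with control siRNA and for 8 of 9 with ITGB4 siRNA, the exception in both being VCL. Among all tested genes replicate 1 was the highest of its group in 40.9% and 35.5% of cases. On the axis of widest variation over all tested genes (first principal component), replicate 1 scored -17.27 with control siRNA and -10.8 with ITGB4 siRNA. The other libraries scored 3.28 to 14.36, so replicate 1 stood apart over the tested genes at large and not only in the 9 genes. The median deviation of the 9 genes from their group means was 0.0505, -0.0297 and -0.0133 (log2) in control replicates 1, 2 and 3 and 0.0406, -0.0155 and -0.0291 in ITGB4 siRNA replicates 1, 2 and 3. Control replicate 2 held the lowest control value for 8 of 9 genes. The mitochondrially encoded genes took the smallest share of reads in replicate 1 of each group (4.70% and 4.998%) and 5.09% to 5.49% in the other 4 libraries. The part of that share in the deviations was not tested.

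**Figure D4:**
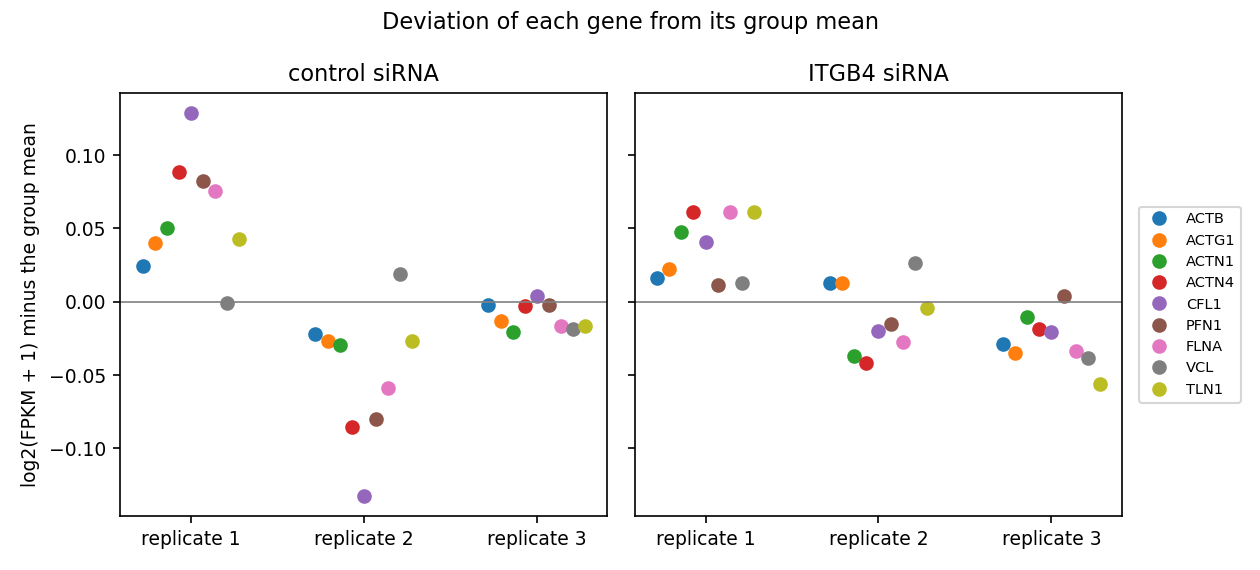
Deviation of log2(FPKM + 1) from the group mean for each of the 9 genes (colours) in replicates 1, 2 and 3 of each group. In replicate 1 the 9 genes lie from -0.000612 to 0.129 with control siRNA and from 0.0115 to 0.0613 with ITGB4 siRNA, and CFL1 has the widest spread in the control group.

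Without replicate 1 of both groups, an alternative chosen after seeing the data, limma called 0 of 9 genes, with 1 at a raw p under 0.05 (ACTB, log2 fold change 0.118, limma adjusted p = 0.568). That fit called 0 of all 12871 tested genes, and ITGB4 itself did not pass (limma adjusted p = 0.0797). Of all tested genes 522 higher and 528 lower had a raw p under 0.05. The median log2 fold change of the 9 genes was then 0.0365, with 7 genes above 0 and 2 below. The ACTB to ACTG1 ratio kept its difference (0.0653 on the log2 scale), and that of ACTN4 to ACTN1 was -0.111.

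Other genes of the actin cytoskeleton were described by role, from lists of 120 further genes, of which 102 were tested. Of these 52 had a log2 fold change above 0 and 50 one below it (median 0.00313). Limma called 1, the tropomyosin gene TPM4, beside 0.0466% of all tested genes, and TPM4 was listed with its result known. Of the 102 genes, 4 higher and 0 lower had a raw p under 0.05 (3.92%, beside 5.83% of all tested genes). The groups did not overlap for 6.86% of them, beside 11.1% of all tested genes. The muscle actins ACTA1 and ACTA2 had means below 1 FPKM, and ACTC1 and ACTG2 were listed at 0 in all 6 libraries. ACTN2, ACTN3, PFN3, PFN4, FLNC and TLN2, relatives of the 9 genes, were also below the filter.

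Among relatives that were tested, CFL2, the cofilin of muscle, averaged 6.47 ± 0.704 FPKM in control libraries against 5.94 ± 0.456 in ITGB4 siRNA libraries (SD, n = 3 each), the order kept for the pairs of means that follow. DSTN, destrin, which severs filaments as cofilin does, was at 73.2 ± 5.29 and 71.96 ± 3.79 FPKM. Of the 9 tested genes that bind monomers or cut filaments, 4 lay above 0 and 5 below. WDR1, a cofactor of cofilin in filament disassembly, was at 39.3 ± 1.22 and 43.3 ± 1.39 FPKM (SD, n = 3 each), with each ITGB4 siRNA library above each control library and a limma adjusted p of 0.752. CAP2, a cyclase-associated protein that recycles monomers, was at 2.69 ± 0.114 and 2.29 ± 0.465 FPKM, with overlapping groups.

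The kinases and phosphatases that act on cofilin lay above 0 in 6 of 7 tested genes, with a median of 0.0297, and limma called 0 of them (1 had a raw p under 0.05). Of all tested genes 48.5% lay above 0, with a median of -0.0034, and 5.83% had a raw p under 0.05. Without replicate 1 of both groups 5 of the 7 kinases and phosphatases lay above 0, beside 50.9% of all tested genes. TESK1, a kinase that inactivates cofilin, was at 11.5, 8.22 and 9.19 FPKM with control siRNA and at 11.9, 11.5 and 11.5 with ITGB4 siRNA. Its ITGB4 siRNA libraries lay close together, just above control replicate 1 (log2 fold change 0.26, limma adjusted p = 0.852). LIMK1, another such kinase, was at 24.6, 18.6 and 20.96 FPKM and at 26.1, 24.4 and 24.2 FPKM, and control replicate 1 overlapped the ITGB4 siRNA libraries (limma adjusted p = 0.88). Replicate 1 was the highest of its group for both kinases, as it was for 8 of the 9 genes.

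Genes that start and extend filaments showed no call. Of 18 tested genes of the Arp2/3 complex and its activators 8 lay above 0 and 10 below (median -0.00418), and of 11 formins and Ena/VASP genes 6 above and 5 below (median 0.0062). ARPC5, a subunit of the complex, was at 9.73 ± 0.650 and 8.93 ± 0.543 FPKM, and BRK1, a subunit of the WAVE complex that activates it, at 58.2 ± 2.60 and 60.6 ± 0.431 FPKM (SD, n = 3 each). FMNL1 and FMNL3, both formins, were at 8.41 ± 0.541 and 9.21 ± 0.311 FPKM and at 3.64 ± 0.0486 and 3.96 ± 0.133 FPKM. For FMNL3 the groups did not overlap (limma adjusted p = 0.976).

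Capping proteins, which close filament ends, lay below 0 in 6 of 7 genes (median -0.0354). ADD3, an adducin, was at 13.95 ± 0.791 and 13.06 ± 0.425 FPKM, and CAPZB, a subunit of the capping protein, was the 1 gene above 0, at 39.5 ± 1.99 and 41.1 ± 0.512 FPKM (SD, n = 3 each). Bundling and crosslinking genes lay above 0 in 7 of 9 cases (median 0.0157). Among these MARCKS, which binds filaments at the membrane, was at 7.50 ± 0.695 and 8.26 ± 0.558 FPKM, and PLS1, the plastin of intestinal microvilli, at 10.07 ± 0.768 and 9.47 ± 0.186 FPKM. Limma called 0 genes in both lists, and 0 had a raw p under 0.05. Without replicate 1 of both groups 6 of 7 capping genes again lay below 0, and 5 of 9 bundling and crosslinking genes above it. Of all tested genes 48.5% lay above 0 in the main fit and 50.9% without replicate 1.

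The 7 genes of non-muscle myosin II, the motor that slides actin filaments, lay above 0 in 4 cases and below in 3 (median 0.0405). Without replicate 1 of both groups, 6 of the 7 lay above 0. MYH9, the main heavy chain of this myosin, was at 155.6 ± 7.36 and 160.9 ± 4.90 FPKM, and MYL12A, a regulatory light chain, at 63.7 ± 2.37 and 65.5 ± 1.66 FPKM (SD, n = 3 each). Linkers of actin at adhesions lay above 0 in 8 of 18 genes (median -0.0123). TNS4, a tensin that binds integrin tails but lacks the actin-binding part of other tensins, was at 85.5, 78.1 and 80.0 FPKM with control siRNA and at 75.8, 76.9 and 74.98 with ITGB4 siRNA. All 3 ITGB4 siRNA libraries were below the control libraries, and the limma adjusted p was 0.926. LPP, a zyxin relative, was at 2.94 ± 0.343 and 3.43 ± 0.299 FPKM (SD, n = 3 each), with overlapping groups.

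Many actin genes are targets of SRF, a transcription factor whose cofactors MRTFA and MRTFB are held back by free actin monomers. SRF binds a short element called the CArG box. In the RefSeq promoter table (GRCh38.p14, 250 bases before to 50 after a start), 8 of the 9 genes matched, all but ACTB, with 12 promoters. The consensus CArG box reads the same on both strands, and it occurred in 3 of these 12 promoters, 1 each of ACTG1, FLNA and ACTN1, against 1.29% of all 35116 promoters in the table. The 90-base windows that hold it are shown 5′ to 3′ on the minus strand, with the box in capitals so that the matched letters can be seen.
ACTG1 at chr17:81512844-81512933: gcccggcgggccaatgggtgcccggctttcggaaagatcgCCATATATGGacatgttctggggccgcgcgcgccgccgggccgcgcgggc
FLNA at chrX:154374679-154374768: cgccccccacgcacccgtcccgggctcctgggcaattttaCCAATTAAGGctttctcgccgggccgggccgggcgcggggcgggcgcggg
ACTN1 at chr14:68977688-68977777: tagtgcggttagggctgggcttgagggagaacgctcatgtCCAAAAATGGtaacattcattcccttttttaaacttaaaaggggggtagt
The boxes of ACTG1 and FLNA both begin 94 bases before the start, and that of ACTN1 begins 171 bases before a start that is 1 of 4 listed for the gene. A match describes these letters only and is no evidence of binding in these cells.

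SRF and its cofactors were measured at low to moderate levels. SRF was at 14.2 ± 1.31 and 14.4 ± 0.867 FPKM, MRTFA at 6.45 ± 0.388 and 6.58 ± 0.314 and MRTFB at 3.19 ± 0.257 and 3.24 ± 0.135 FPKM (SD, n = 3 each); these 3 genes were chosen for naming after their values were seen. ELK4, an ETS factor that works with SRF, was at 7.204 ± 0.560 and 7.49 ± 0.311 FPKM. FHL2, a LIM-domain cofactor and itself a target of SRF, was at 8.34, 8.06 and 8.33 FPKM with control siRNA and at 9.69, 9.52 and 9.45 with ITGB4 siRNA. Its groups were apart by more than their spread, but the difference of 15.9% did not pass over all genes (log2 fold change 0.19, limma adjusted p = 0.514).

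Of 17 tested targets of SRF and MRTF, 11 were above 0 and 6 below (median 0.027), beside a median of -0.0034 over all tested genes. This list holds ACTB, ACTG1, ACTN1, FLNA and VCL and was drawn up with the result of TPM4 known, so it is not independent evidence of its direction. Limma called 1 of the 17, TPM4, at 43.04, 47.8 and 45.4 FPKM with control siRNA and 69.9, 72.9 and 71.5 with ITGB4 siRNA (log2 fold change 0.64, limma adjusted p = 0.0137). Leaving out any 1 of the 3 ITGB4 siRNA libraries left limma with 0 called genes in all, TPM4 and ITGB4 included. TPM4, ACTB and FHL2 were the 3 with a raw p under 0.05, all higher, where limma called 0.0466% of all tested genes and 5.83% had such a p (374 higher and 376 lower). CYR61 and CTGF, which encode secreted matrix proteins and are on this list, were at 4.71 ± 0.500 and 4.52 ± 0.564 FPKM and at 1.30 ± 0.174 and 1.21 ± 0.0405 FPKM (SD, n = 3 each). Both had overlapping groups, and they too were chosen for naming after their values were seen. Without replicate 1 of both groups 15 of 17 lay above 0 (median 0.0415), beside 50.9% of all tested genes (median 0.00206) and 7 of the 9 genes, of which 5 are in this list. Limma then called 0 of 12871 genes (522 higher and 528 lower at a raw p under 0.05).

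**Figure D5:**
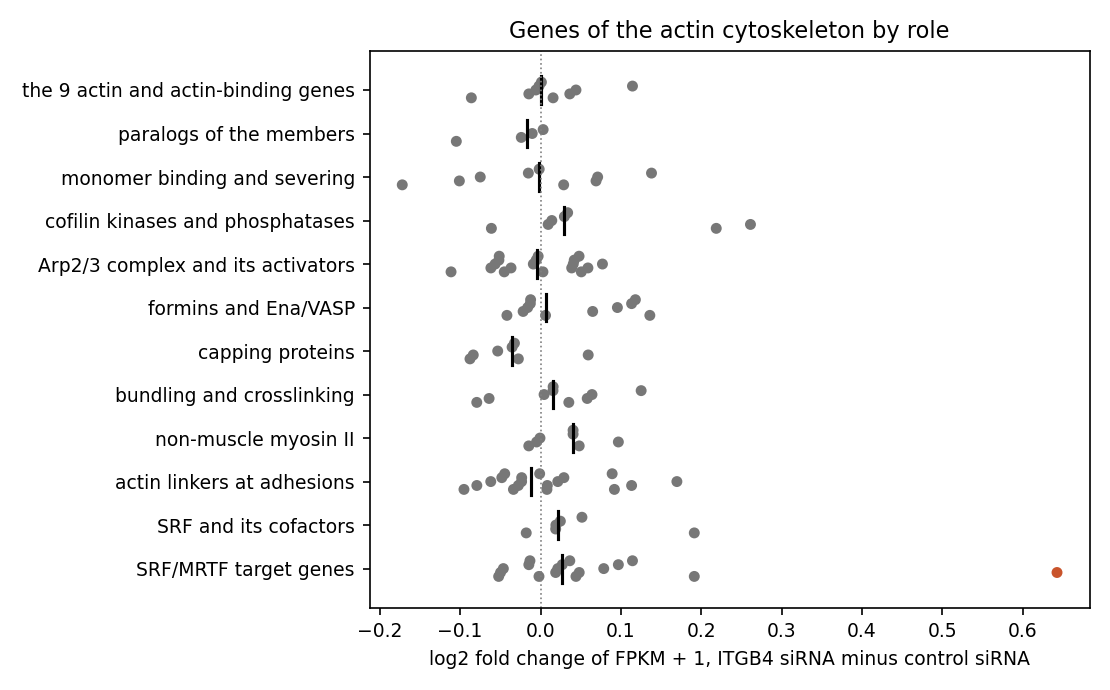
log2 fold change of FPKM + 1 (ITGB4 siRNA minus control siRNA) for each tested gene of 12 lists by role, with the list median as a black bar and genes called by limma in orange. TPM4 at 0.64 is the 1 called gene, and the list medians lie from -0.0354 to 0.0405.

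Among 4433 other protein-coding genes with a mean of at least 10 FPKM, those whose log2(FPKM + 1) followed ACTB most closely over the 6 libraries were CUX1, CDK8 and GUCD1 (Pearson r of 0.993, 0.984 and 0.984, given as a description of 6 points that share libraries and scaling). CUX1, a homeobox transcription factor, was at 10.8, 10.2 and 10.2 FPKM with control siRNA and at 12.2, 12.1 and 11.8 with ITGB4 siRNA. The groups of ACTB did not overlap, so choosing genes for likeness to ACTB favours genes that part by group. In all, 66 of these genes had an r above 0.9.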

How the data were processed

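RNA from 6 SW480 libraries was captured on poly-T beads, per the labels' protocols. The authors deposited FPKM per gene, with the gene length they used, on GRCh38. DESeq2 and edgeR appear in the submitters' processing notes, with no role given, and the aligner and counter are not given in the sources used here. All gene coordinates equal those of GENCODE 29. FPKM times gene length, divided by what 1 read was worth in that library, gave whole reads for 100% of values in each library (tolerance 0.01).

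Titles of the samples gave the groups. Genes with a mean of at least 1 FPKM were tested on log2(FPKM + 1) with limma 3.58.1 (limma-trend, two-sided) in R 4.3.3, adjusted by Benjamini-Hochberg over 12871 genes, and called at an adjusted p under 0.05. The 1 FPKM added before taking log2 makes changes of low genes look smaller. Ratios and single levels were compared by exact two-sided permutation tests, which cannot go below 0.1 here. The fit was tested on simulated data. Percent intervals are limma's 95% intervals of the log2 fold change. Each gene's transcript was the principal transcript of GENCODE 29, the longest where several were principal. The alternatives were another pseudocount, low-value filters, scalings, a replicate block, robust moderation, limma-voom and leaving out libraries.

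The members and lists were chosen with earlier results of these data known. The rule for naming took the 9 genes and ITGB4, in each other list the 2 genes with the smallest p and any called gene, and the 3 genes most like ACTB. Of the listed genes, 2 were matched by gene ID to older symbols (CYR61 and CTGF).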

Additional observations from a re-analysis of the deposited data

How the results depend on the processing

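In each of 16 alternative fits limma or limma-voom called 0 of the 9 genes. In several of them limma called 0 genes in all, so a count of 0 of 9 was fixed there. These had no low-value filter, the replicate block, 1 ITGB4 siRNA library left out, or replicate 1 of both groups left out. In the remaining fits 3 to 26 genes were called. Median-of-ratios scaling gave the main fit's values for the 9 genes to the printed digits, so it is no separate check. ACTB, ACTG1 and ACTN1 stayed above 0 and ACTN4 below it in all 16, with ACTB at 0.104 to 0.129 (log2; adjusted p 0.296 to 1). Directions turned only in genes whose main values were near 0. FLNA turned with TPM (0.00287), with scaling without the 9 genes (0.00349) and with limma-voom (0.0038), CFL1 with limma-voom (0.000108), and both without replicate 1 of both groups (0.00525 and 0.0383). Leaving out 1 library gave -0.0326 to 0.0359 for FLNA, -0.0722 to 0.0586 for CFL1, -0.0389 to 0.0422 for PFN1, -0.0149 to 0.0438 for TLN1 and -0.0276 to 0.00476 for VCL. The cause was not tested.

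Of all tested genes, 6 were called by limma, 0 with no low-value filter (where 0 of the 9 had a raw p under 0.05), 26 with limma-voom and 0 without replicate 1 of both groups. Leaving out 1 library gave 0 to 7 genes called, 0 to 2 of the 9 at a raw p under 0.05, and a median over the 9 from -0.0149 to 0.0422, the highest without control replicate 1. The log2 ratio difference ran from 0.0624 to 0.0758 for ACTB to ACTG1 and from -0.151 to -0.104 for ACTN4 to ACTN1. That of CFL1 to PFN1 ran from -0.0338 to 0.0168, turning without control replicate 1 (0.0168), without ITGB4 siRNA replicate 3 (0.00555) and without replicate 1 of both groups (0.00209).

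With the replicate block 0 genes were called, and ACTB had an adjusted p of 0.562. Libraries of the same number correlated at 0.173, 0.102 and -0.01 in their deviations from the group means (numbers 1, 2 and 3). Those of different numbers correlated at -0.174 to 0.0862, below the values of numbers 1 and 2. The labels do not say that a number marks a shared batch, so the numbers were not taken to pair the libraries. Counting error was 0.4% to 1.98% for the 9 genes, and for VCL, the least abundant, it was above the spread between control libraries (1.38%).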

Other observations

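The order of the 9 genes by level depends on the gene length used. With the deposited lengths the mean FPKM over the 6 libraries was 1237 for ACTG1, 1191 for ACTB, 513.1 for ACTN4, 429.2 for PFN1, 395.7 for FLNA, 125.1 for CFL1, 109.9 for ACTN1, 47.2 for TLN1 and 17.04 for VCL. Neighbouring ranges overlapped for ACTG1 and ACTB, for PFN1 and FLNA and for CFL1 and ACTN1. Within each library, however, the gene named first in each pair had the higher FPKM. The deposited length was 3.12 times the principal transcript for CFL1 (5863 against 1878 bases), 2.81 times for ACTN1 and 1.83 times for ACTB, but 1.14 times for TLN1. Per kilobase of the principal transcript, an alternative chosen after seeing the data, ACTB came first at 2181 and ACTG1 second at 1641. PFN1 (660.5) then stood above ACTN4 (630.5), and CFL1 came to 390.6. Such a change of length multiplies all 6 libraries of a gene alike, so on the plain FPKM scale it does not alter the comparison between the groups.

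By reads, the long gene FLNA was close to ACTB, with means of 62471 and 62522 reads a library, and PFN1 had 12727.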
